A study of Isoetes sinensis with 3 samples.

Results

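Genes with introns in the 3′ UTR are genes of the quillwort *I. sinensis*, a tetraploid aquatic lycophyte, whose mature transcript is annotated as spliced downstream of the coding sequence (CDS). They were chosen by their annotated positions: a gene on pseudochromosomes 1 to 22 entered when its 3′ UTR was split by a gap, or when a gap separated the last CDS segment from the 3′ UTR. This rule found 3325 genes with 4854 introns in the 3′ UTR, which is 6.15% of the 54063 genes on the 22 pseudochromosomes and 12.4% of the 26794 genes with an annotated 3′ UTR. The other 23469 genes with a 3′ UTR carry it in a single exon and are called intronless genes below, whatever introns their CDS has. A further 27269 placed genes have no annotated 3′ UTR and could not be classified. On unplaced scaffolds, 128 more genes have such introns and are not counted. The annotation belongs to the whole plant and to no single tissue. RNA from root, shoot and sporophyte (the label's word, where the methods name sporangia) was sequenced as 1 library per tissue, with no treatment named. No tissue is compared here. Which gene models rest on reads from which tissue is not given in the annotation.

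In most plant and animal genes the stop codon lies in the last exon, so that no splice junction follows it. Splicing leaves an exon junction complex on the mRNA near each junction, and translating ribosomes remove the complexes that lie in the CDS. A complex that remains well downstream of the stop codon is a known signal for nonsense-mediated decay (NMD), the pathway that degrades mRNAs with a premature stop. As a rule of thumb from animals and plants, a junction more than 50 to 55 bp beyond the stop codon is far enough for this signal. Introns in the 3′ UTR can therefore be part of normal gene control, and they can also appear when a reading frame ends early. The annotation gives positions only, so decay itself was not measured.

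The first junction lay close to the CDS end in many genes and far beyond the limit in others. The spliced distance from the last CDS base to the first junction had a median of 87 bp, with quartiles of 25 and 246 bp and a range from 0 to 4331 bp. In 1259 genes (37.9%) the distance was at most 50 bp, in 64 (1.92%) it was 51 to 55 bp, and in 2002 (60.2%) it was over 55 bp. Over the 22 pseudochromosomes, the share over 55 bp ran from 54.1% to 65.8% (SD 3.46 percentage points). A single later junction is enough to exceed the limit, and 319 genes with a first junction within 55 bp had a later one beyond it. With these included, 2321 genes (69.8%) had at least 1 junction over 55 bp from the CDS end, and in 1004 genes (30.2%) all junctions lay within 55 bp.

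The number of genes declined with distance from the CDS end, without a step at 50 to 55 bp. The first 10 positions (0 to 9 bp) held 45.1 genes per bp, positions 20 to 29 held 19.7, positions 50 to 59 held 12.3, and positions 60 to 99 held 9.875. Around the limit, 74 genes lay at 46 to 50 bp, 64 at 51 to 55 bp, 59 at 56 to 60 bp and 75 at 61 to 65 bp. In 68 genes the distance was 0, which means that the exon ended with the last CDS base and the whole 3′ UTR lay downstream of the junction. In 99 genes the distance was over 1 kb.

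**Figure D1:**
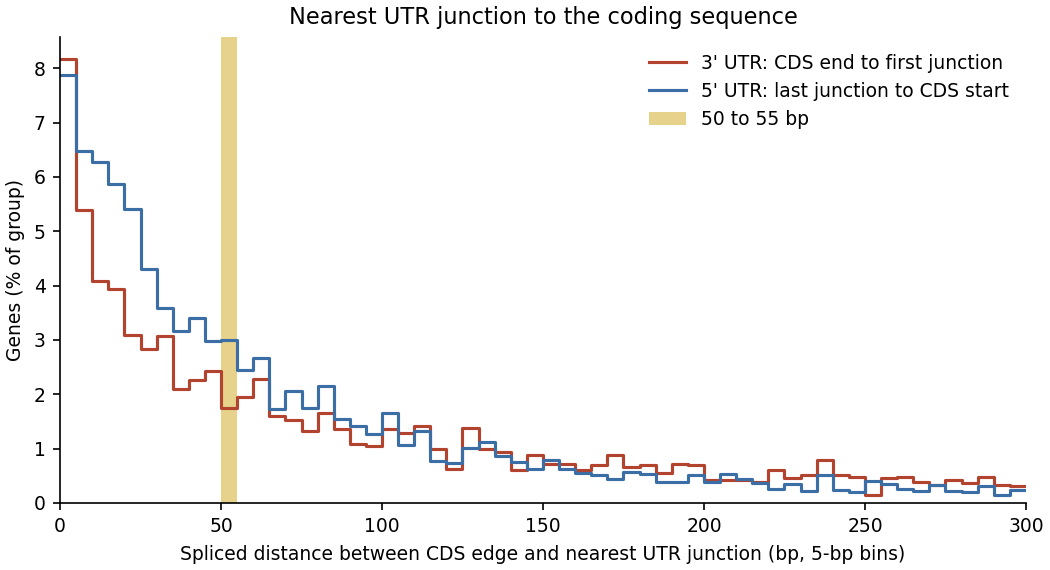
Percentage of genes (y axis) by spliced distance in bp (x axis, 5-bp bins) from the CDS end to the first 3′ UTR junction (red, 3325 genes) and from the last 5′ UTR junction to the CDS start (blue, 4938 genes), with 50 to 55 bp shaded. Both curves are highest next to the CDS and pass the shaded limit without a step, and 21.0% of the red and 9.23% of the blue genes lie at 300 bp or more, beyond the axis.

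Junctions were farther from the CDS in the 3′ UTR than in the 5′ UTR. For this and the following differences, a value was computed in each of the 11 pairs of matching pseudochromosomes (1 with 2 through 21 with 22), and the signs of the 11 differences were flipped in every combination, as a two-sided exact permutation test with Benjamini-Hochberg adjustment over the 15 tests of this report. The smallest p this test can give is 0.000977. The pairs are chromosomes of a single genome and not replicates of a condition, so a p measures only whether a difference recurs along the genome. The median distance averaged 88.3 ± 8.69 bp in the 3′ UTR and 49.9 ± 5.25 bp in the 5′ UTR (SD, n = 11 pairs). The difference of 38.4 ± 9.47 bp had the same direction in 11 of 11 pairs (exact permutation test, adjusted p = 0.00209), and with means in place of medians it was 87.1 bp. A distance over 55 bp was found in 60.2% of the genes with 3′ UTR introns and in 47.3% of the 4938 genes with 5′ UTR introns.

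Most of these genes had a single 3′ UTR intron. There were 2329 genes with 1 intron (70.0%), 731 with 2 (21.98%) and 265 with 3 or more (7.97%). Genes with several introns more often had the first junction over 55 bp in these counts, in 66.7% of the 996 genes with at least 2 introns and in 57.4% of those with 1; this difference was not tested. The highest number was 11, reached by 3 genes. The first of them, evm.TU.Chr1.4769 on chromosome 1 (90942080 to 90950070, minus strand), has an uninterrupted CDS of 2676 bp followed by a spliced 3′ UTR of 3355 bp. Its first junction lies 298 bp and its last 2745 bp from the CDS end, and its 3′ UTR introns measure 62 to 698 bp.

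Introns of the 3′ UTR were mostly short, with a median below that of 5′ UTR introns and near that of the CDS introns of the same genes. Their median length was 101 bp with quartiles of 77 and 255 bp, and 2678 of 4854 (55.2%) measured 60 to 120 bp. The smallest was 21 bp, in evm.TU.Chr12.1516 on chromosome 12 (27210742 to 27213195, minus strand). The rule accepts any gap, and no gap of 1 to 20 bp occurred, so the genes just outside it have a continuous 3′ UTR. In the pairs, the median averaged 102.8 ± 7.53 bp for 3′ UTR introns and 100.5 ± 4.08 bp for CDS introns of the same genes (SD, n = 11 pairs). The difference of 2.27 ± 9.94 bp did not pass the exact permutation test (adjusted p = 0.507), being positive in 6 pairs and negative in 5, and with means it was 45.03 bp and did not pass either. Against 5′ UTR introns, with 141.0 ± 14.2 bp, 3′ UTR introns were shorter in 11 of 11 pairs, and the difference was -38.2 ± 17.97 bp (exact permutation test, adjusted p = 0.00209). The difference is one of typical introns, since with means in place of medians it was -30.3 bp and no longer passed the test.

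**Figure D2:**
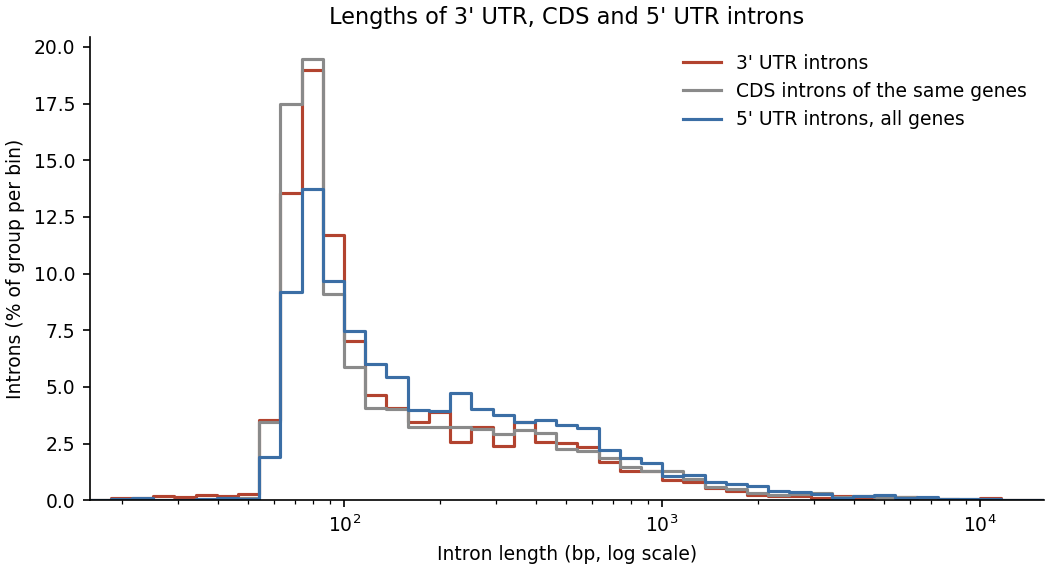
Percentage of introns per bin (y axis) by length in bp (x axis, log scale) for 4854 introns in the 3′ UTR (red), 15181 CDS introns of the same genes (grey) and 6706 introns in the 5′ UTR of all placed genes (blue). The red and grey curves share a narrow peak near 80 bp, while the blue curve has more introns above 120 bp. In each group 9 introns are longer than the axis.

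Long 3′ UTR introns were few. Over 1 kb there were 220 (4.53%), against 826 (5.44%) of the CDS introns of the same genes, and over 5 kb there were 38 (0.783%), against 84 (0.553%). The order of the shares thus differed between these lengths, and they were not tested. The longest, 98194 bp, belongs to evm.TU.Chr5.4100 on chromosome 5 (77154432 to 77253644, minus strand), a model with a CDS of 558 bp in 1 exon and the junction 146 bp beyond it. The span of this model holds 4 other genes. In all, 9 genes with 3′ UTR introns had another gene wholly inside such an intron. Overlap with any other gene on either strand was found in 77 (2.32%) of the genes with 3′ UTR introns and in 472 (2.01%) of the intronless genes. The difference of 0.275 ± 0.887 percentage points (n = 11 pairs) did not pass the test (adjusted p = 0.368). Identifiers that join neighbouring gene models were carried by 47 (1.41%) and 414 (1.76%) of these genes.

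The CDS of genes with 3′ UTR introns was shorter at the median than that of intronless genes, and more variable. The median CDS was 1032 bp with quartiles of 531 and 1719 bp, against 1122 bp with quartiles of 675 and 1659 bp in intronless genes. Averaged over the pairs, the medians were 1026 ± 101 bp and 1124 ± 24.6 bp. The difference of -98.6 ± 102 bp (n = 11 pairs) was negative in 9 of 11 pairs (adjusted p = 0.0179). The lower quartiles lay farther apart than the medians, and the upper quartiles lay in the opposite order. With means in place of medians the difference was -21.4 bp and did not pass the test. All 3325 genes had a CDS that is a multiple of 3. The longest, 11301 bp in 15 exons, was that of evm.TU.Chr17.3000 on chromosome 17 (58609451 to 58624949, minus strand), with 3 introns in the 3′ UTR and the first junction 27 bp from the CDS end. The shortest, 144 bp, was that of evm.TU.Chr8.3550 on chromosome 8 (66851087 to 66852056, plus strand), with its junction at 76 bp.

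The number of CDS exons did not differ detectably. It averaged 5.57 ± 0.460 in genes with 3′ UTR introns and 5.63 ± 0.190 in intronless genes, and the difference of -0.0653 ± 0.452 (n = 11 pairs) did not pass the test (adjusted p = 0.633). A CDS in a single exon was found in 23.2% of the genes with 3′ UTR introns and in 21.8% of intronless genes. Intronless genes include those with 1 exon in all. Among genes with the same total number of exons, those with 3′ UTR introns had fewer CDS exons by construction, with a difference of -1.43.

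Coding sequence reached less far into the exon in which it ends. That exon held 182 ± 26.5 coding bp in genes with 3′ UTR introns and 276 ± 17.98 bp in intronless genes, where it is the last exon. The difference of medians was -93.5 ± 34.2 bp (n = 11 pairs) and negative in 11 of 11 pairs (adjusted p = 0.00209). With means it was smaller, -29.2 bp, and only just passed the test. As a description of what the rule selects, the spliced 3′ UTR had a median of 576 bp in genes with 3′ UTR introns and 310 bp in intronless genes. Its longest case was evm.TU.Chr6.4155 on chromosome 6 (80010957 to 80023452, plus strand), with 6048 bp in the 3′ UTR and 4 introns there. The largest distance to a first junction, 4331 bp, was that of evm.TU.Chr6.2073 on chromosome 6 (40955290 to 40962377, plus strand), behind a CDS of 915 bp in 1 exon.

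CDS length differed with the position of the first junction. Genes with the junction over 55 bp away had a median CDS of 1132 ± 82.3 bp, and those with the junction at most 55 bp away had 903 ± 144 bp. The difference of 230 ± 103 bp (n = 11 pairs) was positive in 11 of 11 pairs (adjusted p = 0.00209). Over all genes, the median was 1128 bp in the 2002 genes over 55 bp away and 918 bp in the 1323 genes at most 55 bp away, beside 1122 bp in intronless genes, against which these subsets were not tested. The share of genes with a CDS of 1 exon was 30.9% at a distance of 0, 23.2% at 1 to 9 bp, 18.1% at 10 to 50 bp, 14.1% at 51 to 55 bp, 18.3% at 56 to 200 bp and 32.5% over 200 bp. These shares were highest at both ends of the range and were not tested.

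CDS length was also lower in genes with 3 or more 3′ UTR introns. The median CDS was 1050 bp with 1 intron, 1035 bp with 2, 840 bp with 3, 669 bp with 4, 495 bp with 5 and 420 bp with 6 or more, and the mean number of CDS exons was 5.93 with 1 intron and 2.22 with 6 or more. Genes with 3 or more introns had 758 ± 325 bp and those with 1 had 1038 ± 102 bp, and the difference of -280 ± 342 bp (n = 11 pairs) was negative in 8 of 11 pairs (adjusted p = 0.0410). This call is weak. Leaving out 1 chromosome pair ended it in 8 of the 11 cases, with differences of -279 to -242 bp. In the other cases it held, with differences of -348 to -310 bp. The call was also lost with means (-61.8 bp) and without genes that overlap another gene (-239 bp).

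**Figure D3:**
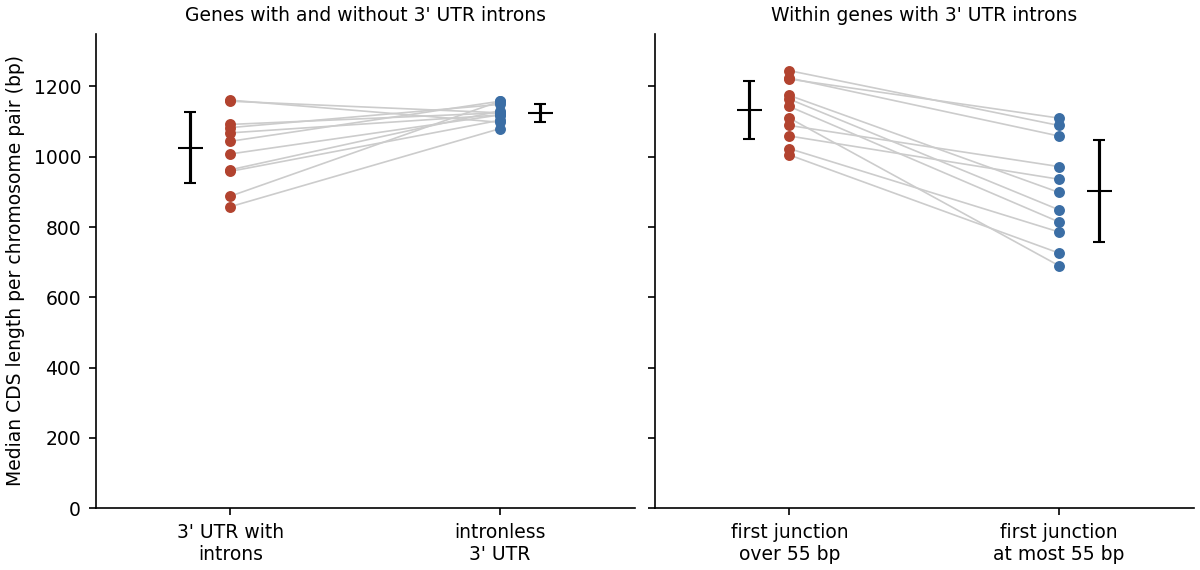
Median CDS length in bp (y axis, from 0) in each of the 11 chromosome pairs (points, joined by lines), with the mean and SD beside them. Medians of genes with 3′ UTR introns, which rest on fewer genes, spread more widely than those of intronless genes and lie lower in 9 of 11 pairs. Among genes with 3′ UTR introns, those with a first junction over 55 bp lie higher in 11 of 11 pairs.

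Internal exons of the 3′ UTR had a length that is a multiple of 3 less often than internal coding exons. Skipping or adding an exon whose length is a multiple of 3 leaves the downstream frame unchanged, and such exons are common inside coding sequences. Of 1529 internal 3′ UTR exons, 541 (35.4%) had a length that is a multiple of 3, against 5704 of 12627 (45.2%) internal CDS exons of all genes with 3′ UTR introns. Lengths spread evenly over the 3 possible remainders on division by 3 would give a share nearer to the 35.4% than to the 45.2%. Neither share was tested against such a spread. In the pairs these shares were 35.2 ± 3.61% and 44.99 ± 2.78%, and the difference of -9.76 ± 5.19 percentage points (n = 11 pairs) was negative in 11 of 11 pairs (adjusted p = 0.00209). Internal 3′ UTR exons occur only in genes with at least 2 introns there. Against the internal CDS exons of these same genes, of which 1333 of 2994 (44.5%) were a multiple of 3, the difference was -8.81 ± 8.26 percentage points and passed the test as well. Internal CDS exons of intronless genes had 45.1%. The internal 3′ UTR exons had a median length of 98 bp and the internal CDS exons 110 bp.

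CDS introns of genes with 3′ UTR introns were slightly longer than those of intronless genes, with medians of 100.5 ± 4.08 and 93.7 ± 2.28 bp. The difference of 6.77 ± 4.64 bp (n = 11 pairs) was positive in 10 of 11 pairs (adjusted p = 0.00366), and it turned to -12.3 bp with means and then did not pass the test. Introns in the 5′ UTR were present in 580 of 2637 genes with 3′ UTR introns and an annotated 5′ UTR (21.99%) and in 3879 of 20215 such intronless genes (19.2%). The difference of 2.89 ± 3.64 percentage points (n = 11 pairs) was positive in 8 of 11 pairs (adjusted p = 0.0413). It was lost without a chromosome pair in 8 of the 11 cases, with differences of 2.52 to 2.98 points. In the other cases it held, with 3.29 to 3.50 points. Against intronless genes with 2 or more exons, which could carry a 5′ UTR intron, it turned to -1.06 points and did not pass the test.

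The genes were found on every pseudochromosome. The number per pseudochromosome ran from 117 on chromosome 13 to 173 on chromosome 8, with a median of 152. As a share of the genes with a 3′ UTR, it ran from 10.4% on chromosome 17 to 15.3% on chromosome 8 (median 12.4%, SD 1.26 percentage points over 22). The median distance to the first junction ran from 69 bp on chromosome 12 to 105 bp on chromosome 13.

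Among genes with a matched copy on the paired chromosome, introns in the 3′ UTR were mostly shared between the copies. Copies were matched on their coding exons alone. Both had at least 5 CDS exons and identical lengths for every internal CDS exon in order, and no other placed gene had these lengths. Of 3881 such pairs of copies on paired chromosomes, 3218 had a 3′ UTR in both copies. In 310 of these both copies had a 3′ UTR intron, in 95 a single copy had it, and in 2813 neither had it. In another 41 pairs the copy of a gene with 3′ UTR introns had no annotated 3′ UTR. A 3′ UTR intron was thus present in the copy of 620 of 715 genes with 3′ UTR introns (86.7%), and in the copy of 1.66% of the 5721 intronless genes in these pairs. Each pair with a single spliced copy counts in both shares. Genes with 3′ UTR introns made up 11.1% of all genes in these pairs. The 715 are a part of the 3325 genes with 3′ UTR introns, and the others do not enter this comparison. The difference between the shares averaged 85.0 ± 4.13 percentage points over the 11 chromosome pairs and was positive in 11 of 11 (exact permutation test, adjusted p = 0.00209). By chromosome pair, the share ran from 80.6% to 91.4% for genes with 3′ UTR introns.

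Where both copies had 3′ UTR introns, the position of the first junction was mostly identical. The distance from the CDS end was equal to the base in 252 of 310 pairs (81.3%), the number of 3′ UTR introns was equal in 293, and the CDS length in 273 (88.1%). The copies lay on the same side of 55 bp in 306 pairs and on different sides in 4. The first 3′ UTR intron itself had the same length in 205 pairs (66.1%) and differed by at most 5 bp in 236. Of the CDS introns of the same pairs, 1974 of 2724 (72.5%) had the same length. The difference between these shares, -5.65 ± 9.79 percentage points (n = 11 chromosome pairs), did not pass the test (adjusted p = 0.105). It passed without chromosomes 19 and 20, with -7.31 points.

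The most 3′ UTR introns in both copies of a matched pair were 3, in 2 pairs, of which 1 was evm.TU.Chr17.3000 with evm.TU.Chr18.3039. The first by position was evm.TU.Chr11.3696 on chromosome 11 (68911651 to 68921761, plus strand) and evm.TU.Chr12.3570 on chromosome 12 (65303855 to 65318805, plus strand). Both have 14 CDS exons, a CDS of 1572 bp, a first junction 3 bp from the CDS end and 3 introns in the 3′ UTR. The introns measure 394, 118 and 553 bp on chromosome 11 and 394, 118 and 557 bp on chromosome 12. The last junction lies 134 bp from the CDS end in both.

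Genes whose copy lacked the intron had the first junction farther from the CDS. The median distance was 54.6 ± 18.2 bp where the copy also had 3′ UTR introns and 198 ± 90.0 bp where the copy had an intronless 3′ UTR. The difference of -143 ± 90.0 bp was negative in 11 of 11 chromosome pairs (exact permutation test, adjusted p = 0.00209). A first junction over 55 bp away was found in 47.7% of the 620 genes with a spliced copy and in 73.7% of the 95 genes with an intronless copy. The number of genes with an intronless copy was 6 to 14 per chromosome pair, which limits the precision of their medians.

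In these 95 pairs the CDS mostly had the same length. It was equal in 81 pairs (85.3%), against 88.1% where both copies had 3′ UTR introns and 87.8% where neither had. The gene with 3′ UTR introns had the shorter CDS in 8 pairs and the longer in 6. The 3′ UTR of the intronless copy was the shorter, with medians of 563 bp in the spliced copy and 387 bp in the intronless copy. In 19 pairs it ended at or before the position of the first junction of the other copy. In 76 pairs it ran past this position without a junction, and in 41 of them it was longer than the distance and the first intron of the other copy together. The pair with most CDS exons was evm.TU.Chr14.987 on chromosome 14 (17494427 to 17507719, minus strand), with a 3′ UTR intron of 74 bp at 650 bp from the CDS end, and evm.TU.Chr13.752 on chromosome 13 (14814150 to 14823244, minus strand), whose 3′ UTR ends after 107 bp. Both have 28 CDS exons and a CDS of 2937 bp.

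**Figure D4:**
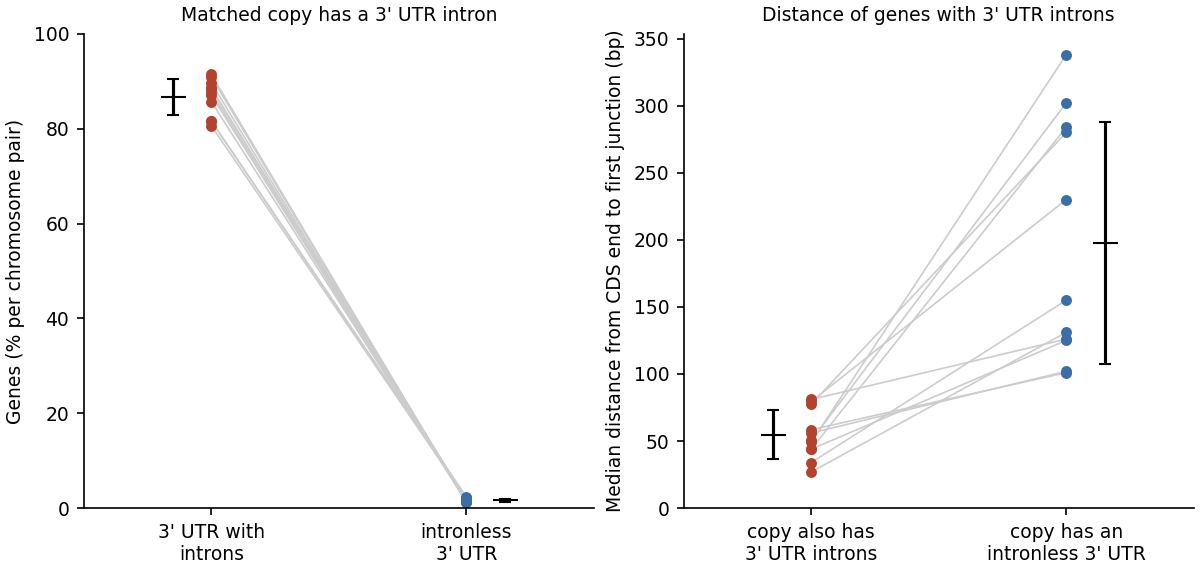
Values in each of the 11 chromosome pairs (points, joined by lines), with the mean and SD beside them. The left panel gives the percentage of genes whose matched copy has a 3′ UTR intron, 80.6% to 91.4% for genes with 3′ UTR introns and 1.195% to 2.41% for intronless genes, and the right panel the median distance in bp from the CDS end to the first junction, lower in 11 of 11 pairs where the copy also has 3′ UTR introns.

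**Figure D5:**
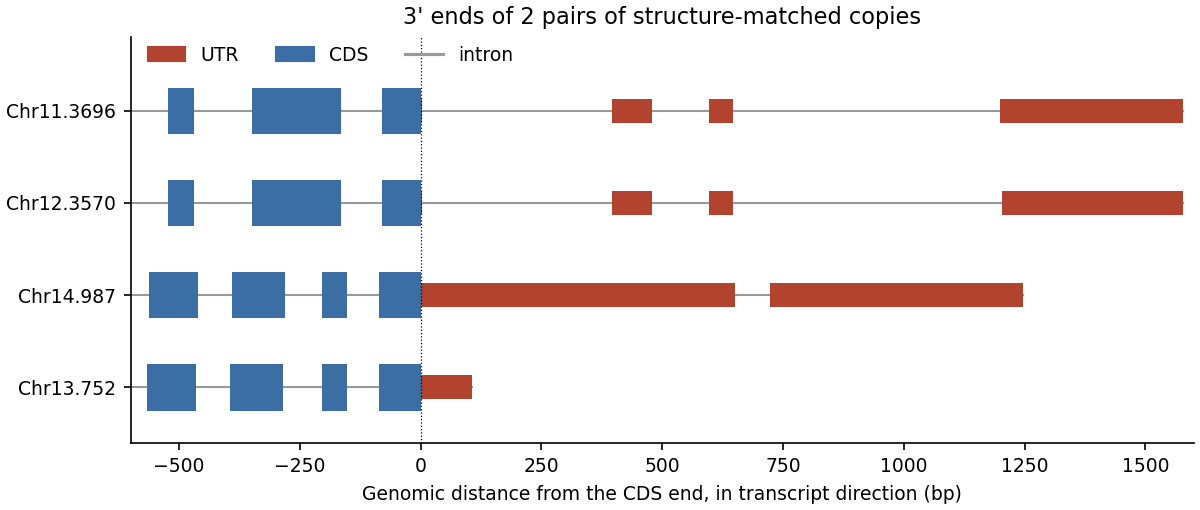
Exon maps of the 3′ ends of 2 pairs of matched copies, drawn to scale in genomic bp from the CDS end (x axis), with CDS in blue, UTR in red and introns as grey lines. The first pair has 3 introns in the 3′ UTR of both copies, and in the second pair the copy on chromosome 13 ends before the position at which the copy on chromosome 14 is spliced.

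For a few genes, another gene with coding exons of the same lengths continued past the position at which the CDS ended. For 1515 genes with 3′ UTR introns and at least 5 CDS exons, the placed genes were searched for the lengths of the last 3 internal CDS exons followed by the full length of the exon in which the CDS ends, with all 4 as internal coding exons in a row. Such a gene, in which coding runs through the exon where the other ends, was found for 4 of the 1515. Among 10582 intronless genes compared it was found for 0. There that exon is the last and holds the whole 3′ UTR, so the search could hardly find a match. The 0 is therefore no contrast to the 4. For 1037 of the 1515 (68.4%), another gene had these 3 lengths in its last internal CDS exons and ended coding in the next. This share was 81.2% among the intronless genes, and these differences were not tested. The count of 4 depended on the number of exons compared. It was 14 when the last 2 internal CDS exons had to match and 3 when the last 4 had to. In 2 of the 4 cases the gene with the longer coding run lay on the paired chromosome. The case with most further coding exons was evm.TU.Chr12.1828 on chromosome 12 (33252679 to 33255258, plus strand), with 6 CDS exons, a CDS of 651 bp and its junction 46 bp from the CDS end. Its length match evm.TU.Chr15.1765 on chromosome 15 (32519725 to 32524193, plus strand) continues through 5 more coding exons to a CDS of 1959 bp. Sequences were not compared, so equal lengths do not establish that 2 genes are copies. A copy with altered exon lengths would not be found by this search.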

How the data were processed

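The authors merged evidence from PASA (transcripts), GeneWise (proteins), Genscan and Augustus (prediction) with Evidence Modeler. They deposited the gene models as feature positions in bp, counted from 1, on the assembly made in the study. For these tools, versions were not given in the sources used here. No genome sequence, expression value or read depth was analysed here. Each gene has 1 mRNA, and exons equalled the joined CDS and UTR segments in every gene. All 3325 genes come from models without a source name. The CDS was taken to include the stop codon.

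Distances count spliced bases from the last CDS base to the end of that exon. Values were compared within the 11 chromosome pairs that share most matched genes and tested with all 2048 sign flips. Of the 15 tests, 10 were fixed with the design and 5 were added after seeing the data: coding bp in the exon with the CDS end, CDS length by intron number and by distance, distance by state of the copy, and equal intron lengths in copies. The members, the rule and the tests were chosen with earlier results of these data known. The search for continuing coding sequence was planned for 4 or more CDS exons, but 3 internal exons require 5. Named genes are the extremes of each measure, the matched pairs with most introns or CDS exons and the case with most further coding exons. Alternatives are listed at the end. The code was tested on simulated data. Python 3.11.15, NumPy 2.4.6 and Matplotlib 3.10.9 were used.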

Additional observations from a re-analysis of the deposited data

How the results depend on the processing

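No paired analysis across samples was possible because the annotation carries no value per library and each tissue has 1. Of 171 values under alternatives, 149 kept their direction and call or stayed within their spread. Part of these 149 could not change or hardly could, as with the minimum intron of 20 bp named last. Requiring a CDS of at least 150 bp left 3324 of 3325 genes. Matched copies had 2 or more CDS exons in any case, and at equal numbers of CDS exons that number could not differ. The count of 149 is therefore not a measure of robustness. With means, the distance to the first junction was 199.8 bp, CDS length against intronless genes -21.4 bp, CDS introns against intronless genes -12.3 bp, 3′ against 5′ UTR introns -30.3 bp, CDS length of genes with 3 or more against 1 intron -61.8 bp, and coding bp in the exon with the CDS end -29.2 bp. Without overlapping genes, CDS length of genes with 3 or more against 1 intron differed by -239 bp. With 2 or more CDS exons, the difference in CDS exons was 0.0172, in intron length between 3′ UTR and CDS -3.18 bp and in overlap -0.217 points. Against intronless genes with 2 or more exons, CDS exons differed by -1.08, 5′ UTR introns by -1.06 and overlap by -0.00936 points. At the same total number of exons, CDS exons differed by -1.43 and 5′ UTR introns by -1.16 points. With exactly 1 intron in the 3′ UTR, the share of 3′ UTR genes was 9.03%, and genes with a continuing length match numbered 2. The differences were then 0.302 CDS exons, -3.05 bp in intron length between 3′ UTR and CDS and 1.33 points in 5′ UTR introns. Single chromosomes gave no separate value for equal intron lengths in copies, which belong to the pair. To the last junction the median was 142 bp, with 69.8% over 55 bp. With 2 exons in a row, genes with a continuing length match numbered 14. Without each chromosome pair in turn, 5′ UTR introns differed by 2.52 to 3.50 points, CDS length by intron number by -348 to -242 bp and equal intron lengths by -7.31 to -4.57 points, and the other 12 tested differences kept their call. The cause of these changes was not tested, except where fewer genes or samples enter by construction. Comparing exons of the same genes only, the share of multiples of 3 differed by -8.81 points, an alternative chosen after seeing the data, like that of equal numbers of CDS exons. A minimum intron of 20 bp changed no value, since no shorter 3′ UTR gap exists.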

Other observations

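The lengths of internal 3′ UTR exons alone, without the CDS, also recurred in pairs of genes. Of 265 genes with at least 2 internal 3′ UTR exons, 223 had a list of lengths of their own and 42 shared it with exactly 1 other gene, giving 21 shared lists. The genes of 15 lists lay on paired chromosomes, those of 4 on the same chromosome and those of 2 on other chromosomes. This is a description of lists of few exons and was not tested. The following examples were chosen after their values were seen. Within chromosome 9, evm.TU.Chr9.1646 (30330166 to 30333866) and evm.TU.Chr9.1648 (30340795 to 30344495) have 8 introns each in the 3′ UTR, all 8 of equal length, with a CDS of 309 bp and a first junction 9 bp from its end in both. On paired chromosomes, evm.TU.Chr17.3000, the gene with the longest CDS, shared its list with evm.TU.Chr18.3039 on chromosome 18 (58309650 to 58326175), with a CDS of 11301 bp and a distance of 27 bp in both. Of the 2 lists on unpaired chromosomes, 1 joined evm.TU.Chr6.751 on chromosome 6 (14627546 to 14632087) and evm.TU.Chr16.470 on chromosome 16 (9676378 to 9680919), with a CDS of 573 bp, a distance of 80 bp and all 3 introns of equal length in both. The other joined chromosomes 4 and 7, where evm.TU.Chr4.2136 (37407083 to 37410860) and evm.TU.Chr7.664 (13271014 to 13275641) shared 4 internal 3′ UTR exons, while the distance was 935 bp on chromosome 4 and 621 bp on chromosome 7, and the CDS was 501 bp and 372 bp.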
